A study of Homo sapiens with 10 samples.

Results

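FAM111A, FAM111B and ZNF367 were followed in U2OS cells given PD0332991 or its solvent DMSO for 4 h. U2OS is a human osteosarcoma line, and PD0332991 (palbociclib) inhibits CDK4 and CDK6, the kinases that D-type cyclins activate. The study asked which transcripts respond to that inhibition, on Affymetrix exon arrays summarised per gene. Cells had been seeded at 25% density and grown for 30 h in McCoy medium with 10% serum. Each treatment had 5 biological replicates, 10 arrays in all, and every array came from this one line, so a result applies to U2OS alone. The labels state a dose of 1 mM, a unit that cannot be checked on the arrays and that is far above the micromolar doses usual for this compound. The array names in the labels form set 1 (replicates 1 to 3 of both treatments) and set 2 (replicates 4 and 5 of both).

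The genes are 3 of the 14232 named by a single symbol on the arrays. Each had 1 probe set. They were picked as less studied S-phase genes that fell strongly under PD0332991, so their treatment difference is what chose them and is given here as a description without a test. That wording held for FAM111B and ZNF367 and less so for FAM111A, whose arrays overlapped between treatments.

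In proliferating cells the D-type cyclins and CDK4 or CDK6 phosphorylate the retinoblastoma protein, which then releases E2F transcription factors, and genes needed for DNA replication are switched on. FAM111A and FAM111B are paralogs that lie beside each other on chromosome 11 and encode proteins with a trypsin-like protease domain. FAM111A binds the sliding clamp PCNA, helps replication forks pass protein obstacles such as trapped topoisomerases, and restricts the growth of certain mutants of the virus SV40; its dominant mutations cause Kenny-Caffey syndrome. FAM111B is mutated in a hereditary fibrosing poikiloderma. ZNF367, on chromosome 9, encodes a C2H2 zinc finger transcription factor.

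Promoter windows from RefSeq (GRCh38.p14, from 250 bases before to 50 after a gene's start) are shown because E2F factors act at promoters of S-phase genes, and sequence played no part in choosing these genes. FAM111A had 2 windows, whose starts lie 2006 bases apart, and ZNF367 had 1. The table matched 2 of the 3 genes, and FAM111B was the one not matched. The 250 bases before each start are printed 5′ to 3′, with capitals for E2F letters: TTTCCCGC, TTTGGCGC, TTTCGCGC or TTTGCCGC on either strand, which do not overlap one another here. The printed part of the first FAM111A window is chr11:59142606-59142855, the second chr11:59144612-59144861, both on the plus strand, and that of ZNF367 is chr9:96418371-96418620 on the minus strand.
FAM111A, first start: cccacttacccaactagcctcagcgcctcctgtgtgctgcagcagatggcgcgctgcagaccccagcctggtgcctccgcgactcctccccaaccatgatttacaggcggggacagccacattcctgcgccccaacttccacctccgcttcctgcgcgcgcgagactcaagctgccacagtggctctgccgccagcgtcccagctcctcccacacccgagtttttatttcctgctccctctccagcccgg
FAM111A, second start: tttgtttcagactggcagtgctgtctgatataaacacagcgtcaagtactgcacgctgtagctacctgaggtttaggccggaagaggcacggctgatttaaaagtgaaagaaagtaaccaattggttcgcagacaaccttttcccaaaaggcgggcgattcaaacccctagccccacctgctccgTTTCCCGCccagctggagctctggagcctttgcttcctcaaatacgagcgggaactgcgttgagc
ZNF367: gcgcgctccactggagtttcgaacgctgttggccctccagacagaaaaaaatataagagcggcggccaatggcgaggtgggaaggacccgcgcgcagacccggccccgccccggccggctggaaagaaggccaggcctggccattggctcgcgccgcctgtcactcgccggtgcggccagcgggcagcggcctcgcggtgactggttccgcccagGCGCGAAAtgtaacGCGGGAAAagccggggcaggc

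The ZNF367 window held 2 matches on the opposite strand, TTTCGCGC at bases -35 to -28 and TTTCCCGC at -21 to -14 from the start. At least 2 matches stood in 0.145% of the 35116 windows in the table, and at least 1 in 3.31%. FAM111A had no match before its first start and 1 before its second, TTTCCCGC at -65 to -58. The second FAM111A window also held TTTGAA, the letters of the CHR element of G2/M genes, at -92 to -87 on the opposite strand (15.2% of windows have it), and 2 copies of CCAAT that overlap on opposite strands. ZNF367 had 2 separate copies of CCAAT as well, a pentamer found at least once in 34.6% of windows, and no TTTGAA. A match describes letters and does not show that a factor binds there.

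FAM111B was the most responsive of the 3. On the 5 DMSO arrays it stood at 8.93, 9.55, 9.80, 9.20 and 9.11 (log2, replicates 1 to 5). After PD0332991 it stood at 7.62, 7.38, 8.18, 7.12 and 7.36. The lowest DMSO array lay above the highest treated one, so the groups did not overlap; every treated array below every DMSO array was seen in 0.56% of all 21980 probe sets. Means were 9.32 ± 0.35 in DMSO and 7.53 ± 0.40 after treatment (SD, n = 5), a log2 difference of -1.78 (limma with array set as covariate, SE 0.19, 95% confidence interval -2.21 to -1.36), or 3.44-fold lower. Only CCNE2, which encodes an E-type cyclin, had a larger decrease among the 14232 genes.

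ZNF367 read 8.43, 8.16, 7.97, 8.15 and 8.20 in DMSO replicates 1 to 5 (log2). With PD0332991 it read 7.52, 7.33, 7.47, 7.31 and 7.30. These groups did not overlap either, and the treated arrays lay close together. The means were 8.18 ± 0.17 and 7.39 ± 0.10 (SD, n = 5), and the log2 difference was -0.79 (SE 0.11, 95% confidence interval -1.03 to -0.56), or 1.73-fold lower. ZNF367 ranked 16 in size of decrease. Its spread between replicates was the smallest of the 3 genes in both treatments.

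FAM111A behaved differently. Its DMSO levels were 8.59, 9.24, 9.36, 8.45 and 8.56 (log2, replicates 1 to 5), and its levels with PD0332991 were 8.72, 8.42, 9.11, 7.97 and 8.38. Treated replicates 1 and 3 lay inside the DMSO range, so the groups overlapped; in set 2 both treated arrays lay below both DMSO arrays. The means of 8.84 ± 0.43 and 8.52 ± 0.43 (SD, n = 5) gave a log2 difference of -0.32 (SE 0.18, 95% confidence interval -0.72 to 0.08), or 1.25-fold lower. The interval includes 0, and it also includes a decrease of 1.65-fold. In order of decrease FAM111A ranked 388 of 14232.

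Over all probe sets limma called 9 lower (0.0409%) and 2 higher (0.0091%) at an adjusted p under 0.05. FAM111B and ZNF367 were among the 9 and FAM111A was not. The 9 became 20 without DMSO replicate 1, 5 without PD0332991 replicate 2 or 3, and 1 without any single one of PD0332991 replicates 1, 4 and 5 or DMSO replicates 4 and 5. Likewise the 2 became 1 without any 1 array other than DMSO replicate 1, without which they were 3. Since the genes were picked for their decrease on these arrays, nothing is read from that count.

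**Figure D1:**
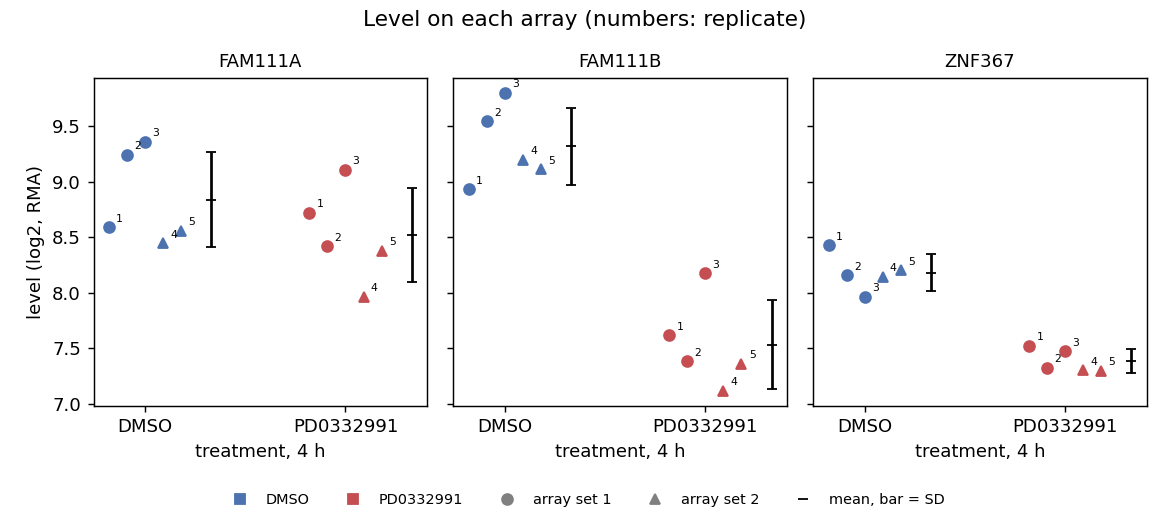
Level of each gene on each array (y axis, log2 RMA value) for the 5 DMSO and 5 PD0332991 arrays, with replicate numbers; circles are array set 1, triangles array set 2, and black bars show the mean ± SD. FAM111B and ZNF367 separate completely by treatment, whereas FAM111A at 8.52 ± 0.43 after treatment overlaps 8.84 ± 0.43 in DMSO.

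The difference was similar in the array sets, a comparison that the choice of the genes did not use. FAM111B differed by -1.70 in set 1 and -1.91 in set 2 (log2, PD0332991 minus DMSO), ZNF367 by -0.74 and -0.87, and FAM111A by -0.31 and -0.33. The limma interaction term for set 2 minus set 1 was -0.22 for FAM111B (95% confidence interval -1.13 to 0.70), -0.13 for ZNF367 (-0.64 to 0.38) and -0.02 for FAM111A (-0.89 to 0.86), each with an adjusted p of 1.00. The intervals are wide with 10 arrays, so differences between sets of up to those sizes are not excluded. No probe set passed the limma interaction test (0%), and 562 of 21980 had an unadjusted p under 0.05. That is a smaller share than the 0.05 that the threshold alone would give.

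No gene's level differed between the sets past the threshold. With treatment in the model, set 2 was lower than set 1 by -0.57 for FAM111A (log2, 95% confidence interval -0.98 to -0.16, limma adjusted p = 0.124), by -0.38 for FAM111B (-0.81 to 0.06, limma adjusted p = 0.355) and by -0.07 for ZNF367 (-0.31 to 0.17, limma adjusted p = 0.795). The threshold was passed by 3.53% of probe sets. FAM111A passed it without DMSO replicate 1 (-0.68, limma adjusted p = 0.0315); its adjusted p spanned 0.00922 to 0.344 across alternatives.

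Comparing genes on the same array separates a change common to both from a change of one relative to the other. Levels of different probe sets are not comparable, so only the change of each difference between treatments is read. FAM111B minus FAM111A was 0.34, 0.30, 0.44, 0.75 and 0.56 on DMSO arrays 1 to 5 (log2). It was -1.10, -1.04, -0.93, -0.85 and -1.02 on PD0332991 arrays 1 to 5. The treatments did not overlap, and the SD was 0.18 and 0.10, smaller than for either gene alone. The difference changed by -1.46 between treatments (log2, SE 0.07), a 2.76-fold change of the ratio, with -1.38 in set 1 and -1.58 in set 2. Both genes were chosen on this contrast, so the change is a description without a test.

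The pairs with ZNF367 were more variable. FAM111B minus ZNF367 ran from 0.50 to 1.83 in DMSO and from -0.19 to 0.71 with PD0332991 (log2), overlapping, with a change of -0.99 (SE 0.26). ZNF367 minus FAM111A ran from -1.39 to -0.16 in DMSO and from -1.64 to -0.66 with PD0332991, also overlapping, with a change of -0.47 (SE 0.25). By estimate the order of decrease was FAM111B, ZNF367, FAM111A, and the step from ZNF367 to FAM111A was the one least clear of the spread.

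**Figure D2:**
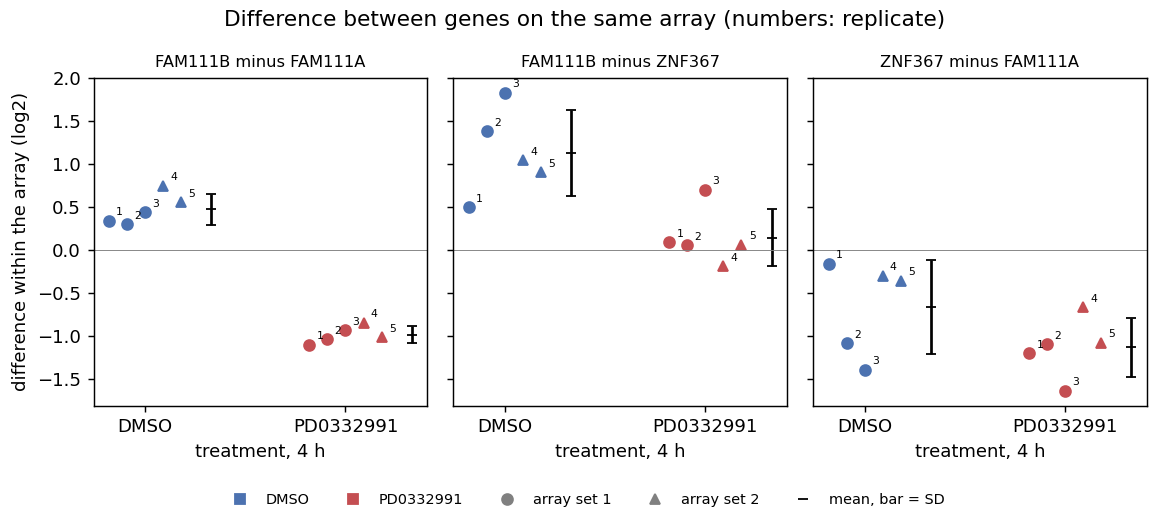
Difference between a pair of genes on the same array (y axis, log2) for the 5 DMSO and 5 PD0332991 arrays, with replicate numbers, set by symbol, and mean ± SD in black. FAM111B minus FAM111A falls into tight groups, 0.30 to 0.75 in DMSO and -1.10 to -0.85 with PD0332991, while the pairs with ZNF367 overlap.

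Deviations of FAM111A and FAM111B within a treatment were correlated across arrays, as were those of many other genes. Each array's deviation from the mean of its own treatment and set takes out treatment and set; DMSO replicate 1 was lowest for both genes (-0.47 for FAM111A, -0.49 for FAM111B, log2) and PD0332991 replicate 3 highest (0.36 and 0.45). The deviations correlated at r = 0.96 (Spearman's rho 0.96, 10 arrays, exact 2-sided permutation within treatment and set p = 0.0139 for each, 0.0278 after Benjamini-Hochberg adjustment over 6 relations). Without those 2 arrays, the farthest from the median, r was 0.92. FAM111A ranked 171 among all genes by this r with FAM111B, and 3.86% of genes had an r at least as large in either direction, so the relation is not particular to the paralogs. ZNF367 did not share this pattern: r was -0.46 with FAM111A (rho -0.18, exact permutation p = 0.431 and 0.715, adjusted 0.431 and 0.715) and -0.52 with FAM111B (rho -0.30, exact permutation p = 0.361 and 0.556, adjusted 0.431 and 0.667). Without the same 2 arrays these were -0.20 and -0.40. DMSO replicate 1 was the highest DMSO array for ZNF367 (0.25), where it was low for the FAM111 genes.

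The same deviations followed the spread of the whole array. The interquartile range of all probe sets ran from 3.18 on DMSO replicate 1 to 3.68 on PD0332991 replicate 3 (log2). Its deviation correlated with that of FAM111A at r = 0.98 (rho 0.95, exact permutation p = 0.0139 for each, adjusted 0.0278) and with that of FAM111B at r = 0.98 (rho 0.99, exact permutation p = 0.00694 for each, the smallest that 144 permutations can give, adjusted 0.0278). Leaving out DMSO replicates 1 and 3, r was 0.96 for both. For ZNF367 r was -0.59 (rho -0.38, exact permutation p = 0.285 and 0.465, adjusted 0.427 and 0.667) and 0.30 without those arrays, so its relation rested on them. Among all genes, 1.94% followed the interquartile range, in either direction, at least as closely as FAM111A and 1.55% as closely as FAM111B. With the interquartile range added to the model after the data were seen, the treatment difference was -0.41 for FAM111A (95% confidence interval -0.57 to -0.24), -1.88 for FAM111B (-2.03 to -1.72) and -0.77 for ZNF367 (-0.97 to -0.57). Across the settings tried, the FAM111A interval excluded 0 with this covariate, with array weights (-0.48, -0.76 to -0.20), without DMSO replicate 1 (-0.45, -0.79 to -0.11), without PD0332991 replicate 3 (-0.42, -0.82 to -0.02) and without both arrays numbered 1 (-0.43, -0.82 to -0.05), and included 0 in the others. These are values of the contrast that chose the gene and support nothing further. After quantile normalization, the deviations of FAM111A and FAM111B still correlated at r = 0.95. Probes of these paralogs could also read each other's transcripts, which was not tested.

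**Figure D3:**
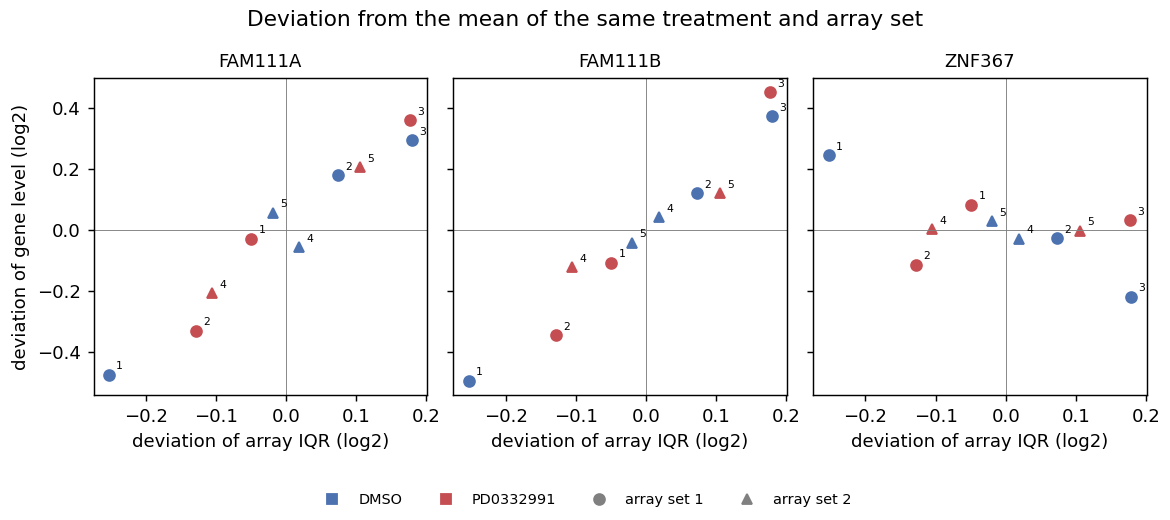
Deviation of each gene (y axis, log2) against the deviation of the array's interquartile range over all probe sets (x axis, log2), both from the mean of the same treatment and array set; each point is 1 of 10 arrays, coloured by treatment. FAM111A and FAM111B rise along the axis (r = 0.98 for each) and ZNF367 does not.

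The genes whose set-centred profile over the 10 arrays was most like FAM111B were CDC6, which loads the MCM helicase (r = 0.99), DTL, a substrate receptor that directs CDT1 to destruction (0.99), CCNE2 (0.99), the exonuclease gene EXO1 (0.99) and the replication initiation factor MCM10 (0.99). Treatment, array and interquartile range are shared by all points, so r is a description of likeness. Their own log2 differences were -0.68 for CDC6, -1.15 for DTL, -1.89 for CCNE2, -0.75 for EXO1 and -0.77 for MCM10. DTL, CCNE2 and MCM10 passed the limma threshold (adjusted p = 0.0499, 0.00911 and 0.0499), and CDC6 and EXO1 had an adjusted p of 0.141 each. CCNE2 alone came near the size of the FAM111B difference. Within treatment and set, deviations of these genes correlated with those of FAM111B at r = 0.88 (MCM10) to 0.97 (CDC6).

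Nearest to ZNF367 were RAD51D, a gene of homologous recombination (r = 0.98), BATF3, a leucine zipper transcription factor (0.96), the licensing factor CDT1 (0.96), ZMYND19 (0.95) and E2F2, itself an E2F factor (0.95). Their deviations within treatment and set correlated less evenly with those of ZNF367. There r was 0.71 for RAD51D, 0.64 for BATF3, 0.94 for CDT1, 0.63 for ZMYND19 and -0.25 for E2F2. The likeness of E2F2 thus came from the treatment step that chose ZNF367 and was absent within treatment and set. E2F2 was lower by -1.01 (limma adjusted p = 0.00289). CDT1 at -0.94 and ZMYND19 at -0.52 had a limma adjusted p of 0.207 each, and RAD51D and BATF3 had log2 differences of -0.29 and -0.30 (adjusted p = 0.652 and 0.680).

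FAM111A was most like CHRNA5, a nicotinic receptor subunit (r = 0.98), PRIM1, the catalytic subunit of primase (0.98), ZNF451, a SUMO ligase (0.97), the helicase gene BRIP1 (0.97) and DSCC1, a subunit of an alternative PCNA loader (0.97). Differences of these genes were -0.28, -0.22, -0.22, -0.43 and -0.45 in that order (log2), and none passed (limma adjusted p = 1.00 each). Their deviations within treatment and set correlated with those of FAM111A at r = 0.95 to 0.98. Likeness between the 3 genes themselves was 0.88 for FAM111B and ZNF367, 0.74 for FAM111A and FAM111B and 0.39 for FAM111A and ZNF367. FAM111B ranked 65 among genes most like ZNF367 and 501 among those most like FAM111A, its paralog.

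Of these 15 genes, 11 had a promoter window, and E2F letters stood in 5: CDC6, DTL and EXO1 of 4 like FAM111B, CDT1 and E2F2 of 4 like ZNF367, and 0 of 3 like FAM111A. Of all measured genes with a window, 5.54% had such letters. The 5 genes are also all members of the E2F and G1/S list, where such letters were common. On that list, 30 members had the letters (29 lower, median log2 difference -0.34). Another 27 had a window without them (25 lower, median -0.25). Whether the letters go with likeness beyond membership of that list was not tested. The 631 genes with E2F letters had a median log2 difference of -0.04, with 60.1% lower and 3 called lower, and the 10753 without had -0.01, with 53.8% lower and 3 called lower.

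None of the measured genes next to the 3 on the chromosome passed, the FAM111 pair itself aside. Going by the order of genes in RefSeq, the measured gene on the far side of FAM111B was GLYATL1, an acyltransferase, with a log2 difference of -0.04 ± 0.13 (SE, n = 5), and beyond FAM111A it was the olfactory receptor gene OR5AN1, with -0.30 ± 0.20. Both were dim, at 4.73 and 4.23 in DMSO where array lower quartiles ran from 5.12 to 5.44. Beside ZNF367 were the nucleotide sugar transporter SLC35D2 (0.22 ± 0.16) and the phosphatase CDC14B (0.11 ± 0.10). Each of these 4 had a limma adjusted p of 1.00.

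**Figure D4:**
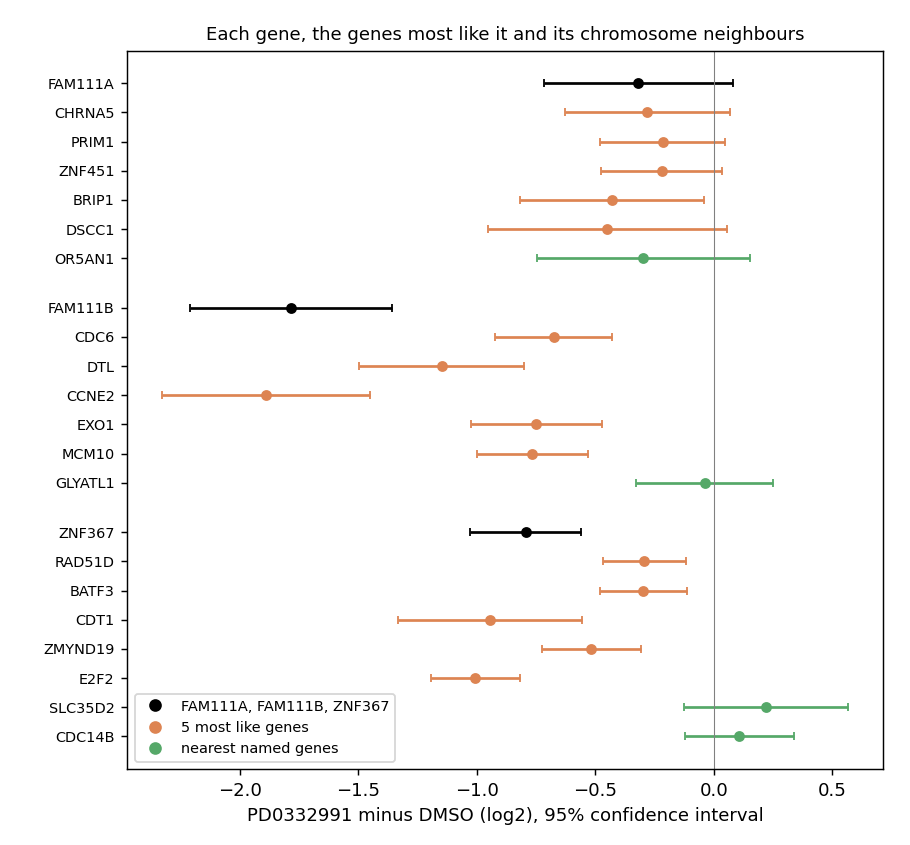
Log2 difference between PD0332991 and DMSO (x axis, points) with 95% confidence intervals (bars, n = 5 arrays per treatment) for the 3 genes in black, the 5 genes most like each in orange and the nearest named genes on the chromosome in green. FAM111B at -1.78 stands beside CCNE2 at -1.89, and the chromosome neighbours lie between -0.30 and 0.22.

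The E2F and G1/S replication list ran from -1.89 to 0.16 on the log2 scale. Of 66 measured members other than these, 63 were lower, with a median log2 difference of -0.32, where 55.3% of all 14232 genes were lower and the median was -0.02. FAM111A at -0.32 lay at the middle of the list: 33 of 66 had a lower value. ZNF367 was passed by 8 members and FAM111B by 1. Of all 14232 genes limma called 9 lower, FAM111B and ZNF367 among them, and 2 higher. Of the list members it called 6 lower and 0 higher: E2F2, CCNE1 (-0.95, limma adjusted p = 0.00911), CDC25A (-1.09, adjusted p = 0.00911), CCNE2, DTL and MCM10. That count was 11 without DMSO replicate 1, and 1 without any single one of PD0332991 replicates 1, 4 and 5 or DMSO replicates 4 and 5. By limma it was also 16 with array weights and 0 with the replicate number as a block or in either array set alone; in the reported fit 33 members, all lower, had an unadjusted p under 0.05. The number of members with a lower value stayed between 61 and 66 when 1 array was left out.

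A list of PCNA, its loaders and its binding proteins was made because FAM111A binds PCNA. Of its 42 measured members, 33 were lower (78.6%, median -0.18). PCNA itself was not among the measured members. Of all genes, 55.3% were lower. Many members, among them DTL, EXO1, MSH6, CDT1 and POLD3, also belong to the E2F and G1/S list, so the 2 lists are not independent. The 9 measured members with a higher value all lay outside the E2F and G1/S list. No share lower was computed for the members outside it. DTL was the single member called, where limma called 9 lower and 2 higher of all 14232 genes. The count of members called was 3 without DMSO replicate 1 and 0 without any 1 of the other 9 arrays. EXO1 at -0.75 and the mismatch repair gene MSH6 at -0.48 did not pass (limma adjusted p = 0.141 and 0.207). Genes of DNA-protein crosslink repair, the process FAM111A serves, were lower in 10 of 24 (median 0.02), none called. The ubiquitin ligase RFWD3 was at -0.55 (limma adjusted p = 0.207), BRIP1 at -0.43 and the topoisomerase TOP2B at 0.34. DNA virus restriction genes of the nucleus, grouped for FAM111A's antiviral role, were lower in 12 of 19 (median -0.07), none called, with the DNA sensor CGAS at -0.49, the chromatin remodeller ATRX at 0.29 and the ubiquitin ligase RAD18 at -0.26.

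Relatives of these genes by structure had medians near that of all genes (-0.02, with 55.3% of genes lower). Among 5 other trypsin-like serine proteases, TYSND1 and the HTRA genes, differences ran from -0.07 (HTRA1) to 0.06 (HTRA4). TYSND1 was at -0.06 and the median was -0.01. Of 283 other genes named ZNF and a number, 166 were lower (median -0.04, range -0.46 to 0.46), 0 were called and 0 were as low as ZNF367. Since ZNF367 was picked for its decrease, nothing is read from its place among them. ZNF530 at -0.46, ZNF114 at -0.37 and ZNF442 at -0.28 had the smallest p (limma adjusted p = 0.433, 0.870 and 0.881). At an unadjusted p under 0.05 limma gave 13 of them lower and 5 higher, beside 359 lower and 185 higher of all 14232 genes. Nucleoporins, whose barrier FAM111 protease activity can disrupt, were lower in 12 of 24 (median -0.01), none called, with NUP214 at -0.17, NUP35 at -0.15 and NUP58 at -0.20. The G2/M list, which also holds genes that act in other phases, such as SKP2, was lower in 20 of 34 (median -0.06), none called. SKP2 was at -0.27, TROAP at -0.27 and AURKB at -0.22. In the lists without a call an unadjusted limma p under 0.05 was reached by 2 crosslink repair genes, 2 virus restriction genes and 4 genes of the G2/M list. It was reached by 0 nucleoporins or proteases. These counts are to be read against the same counts over all genes.

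**Figure D5:**
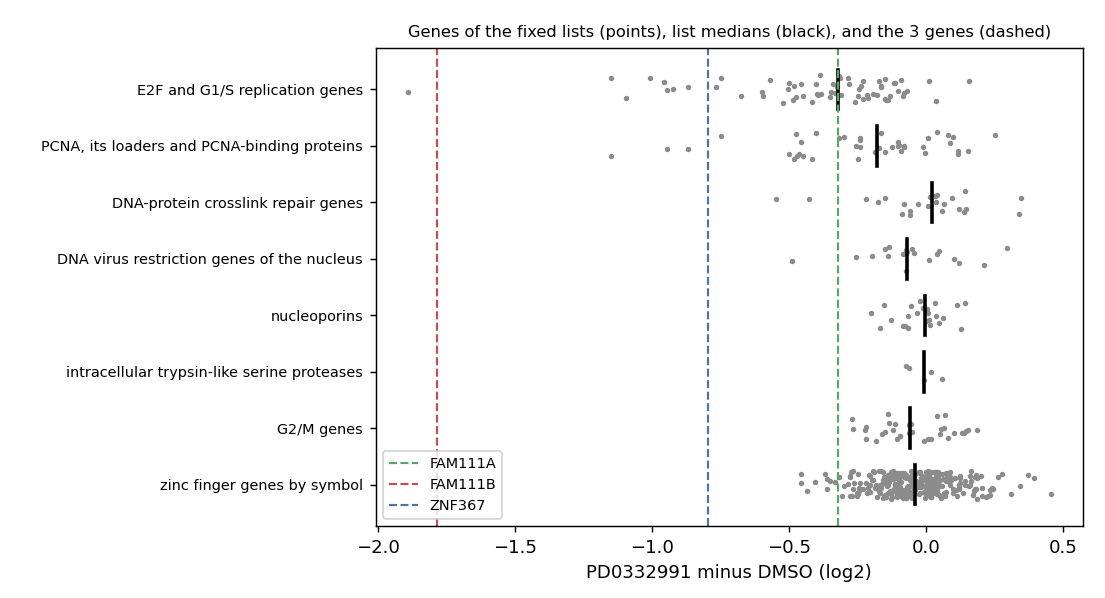
Log2 difference between PD0332991 and DMSO (x axis) of each measured gene of 8 lists (grey points, spread vertically only for legibility), with list medians in black and the 3 genes as dashed lines. FAM111A lies at the median of the E2F and G1/S list (-0.32). No other gene named ZNF and a number reaches ZNF367 at -0.79, which was picked for its decrease in this contrast.

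The 10 arrays had medians from 6.95 to 7.06 (log2), and their number limits the precision of every value. Osteoblast and mesenchymal markers were bright, with 8 of 10 above the array median in DMSO and a list mean of 9.41 to 9.60 on DMSO and 9.48 to 9.65 on PD0332991 arrays. Blood cell markers were dim, with 1 of 9 measured above the median and a list mean of 5.51 to 6.04 and 5.38 to 5.88. Epithelial markers stood between them (4 of 10 above the median, 6.75 to 7.19 and 6.77 to 7.30). The part of these markers in the differences was not tested. In bulk RNA, fewer cells in S phase and less transcript per cell cannot be told apart.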

How the data were processed

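RNA of U2OS cells was measured on Affymetrix exon arrays, 5 per treatment. The authors deposited log2 values, 1 per gene-level probe set and array, made with RMA and Partek on build hg18 according to the submitters' processing notes. RMA subtracts background, makes arrays comparable and combines probes, and it compresses differences of dim genes; settings and versions are not given in the sources used here. Values were taken unchanged.

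Probe sets (21980) were named from the platform annotation, with symbols updated through Entrez identifiers to a RefSeq table (GRCh38.p14), which changed 0. Of them 14432 had 1 symbol, 2408 several and 5140 none; a gene was its brightest single-symbol probe set. Probe sets have no coordinates here, since the builds differ; those of promoters are RefSeq's.

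The fit used limma 3.58.1 under R 4.3.3, by lmFit then eBayes with treatment and array set as terms. Tests were 2-sided, with Benjamini-Hochberg adjustment over all probe sets and a threshold of 0.05. The method was also run on simulated data with independent noise for each probe set. Such data lack the deviations that many genes share on these arrays, so that run says nothing on how stable the calls are. Likeness was Pearson's r after centring on array set. Named genes were the 3 genes, the 5 most like each, their nearest measured neighbours, and of each list the 3 members with the smallest p and every one called. Figures used Matplotlib 3.10.9 under Python 3.11.15. The genes, the lists and the tests were chosen with earlier results of these data known. P-values measure the spread between biological replicates of 1 line.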

Additional observations from a re-analysis of the deposited data

How the results depend on the processing

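The treatment differences of the 3 genes kept their direction and moved by less than 1 SD of the replicates in all 13 other settings and all 10 fits that left out 1 array. Some of the 13 settings could not move them. Dropping the array set or using a replicate block leaves the estimates unchanged in this balanced design. Leaving out other probe sets or fitting a variance trend does not touch them either, so these settings say nothing on stability. FAM111A ran from -0.45 to -0.23 over those 10 fits, FAM111B from -1.93 to -1.69 and ZNF367 from -0.86 to -0.73 (log2). Whether replicate numbers pair the arrays was not settled. Deviations of same-numbered arrays from their treatment means correlated at 0.04, 0.07, 0.54, 0.23 and 0.20. The same number was the best match for replicates 3 and 4 only. With the replicate number as a block the differences were by design the same (-0.32, -1.78 and -0.79) and the calls fell to 1 lower and 1 higher. FAM111B minus FAM111A was -1.58 in set 2 alone, and from -1.50 to -1.42 with 1 array left out. The array set difference passed with array weights, at -0.66 for FAM111A and -0.44 for FAM111B (limma adjusted p = 0.00922 and 0.0445); with 1 array left out it ran from -0.68 to -0.49 and from -0.50 to -0.27.

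Counts of calls were less stable. Probe sets lower and higher were 14 and 4 among single-symbol probe sets, 50 and 13 with array weights, 29 and 9 with the interquartile range as a covariate, and 0 and 0 in either set alone, where limma had fewer arrays. The higher count was 1 without the array set and 1 with arrays centred on their medians. Leaving out 1 array gave 1 to 20 lower and 1 to 3 higher. Members called in the PCNA list were 5 with array weights and 0 with the replicate block or in either set alone. The interaction of each gene with array set passed in none of its alternatives (limma adjusted p = 0.833 to 1.00). The array weights did not fully converge. No gene had a second single-symbol probe set, so that alternative gave no value. The interquartile range, the correlation of deviations and the list counts were added after seeing the data.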
